A study of Homo sapiens with 18 samples.

Results

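Cholesterol and lipid synthesis was followed through 32 genes listed by name: enzymes of the mevalonate and sterol pathway, regulators of the SREBP transcription factors, enzymes of fatty acid and glycerolipid synthesis, and sterol transporters. The list was drawn up by gene function, but with earlier results of these data known. All 32 were found among the 58336 Ensembl genes of the count table by their GENCODE 29 symbols, and all 32 passed the filter on low counts. RNA was sequenced from HEK293A cells, an adherent line of human embryonic kidney origin, labelled wildtype or LATS1/2-DKO, the latter a double knockout of LATS1 and LATS2, the Hippo pathway kinases that restrain the coactivators YAP and TAZ. Cells of each genotype were kept for 4 h in H2O, in 250 uM ZnCl2 or in 50 uM CdCl2, which gave 6 groups of 3 libraries. The treatment time, the parental line and the library kit (stranded Illumina TruSeq mRNA) were shared by all groups. The labels describe 1 knockout line and do not say whether it is a clone or where the genes were edited, so genotype cannot be told apart from other differences between the lines. The design text calls the replicates biological without naming separate cultures, so the p-values reflect only the spread between libraries, which may be technical.

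Cholesterol is built from acetyl-CoA by a chain of enzymes that first makes mevalonate and farnesyl pyrophosphate, then squalene, and finally closes and trims the sterol rings. The transcription factors SREBP1 and SREBP2, encoded by SREBF1 and SREBF2, switch these genes on when sterols are scarce. SCAP carries the SREBP precursors from the endoplasmic reticulum to the Golgi for cleavage, and INSIG1 and INSIG2 hold SCAP back when sterols are plentiful. The LXR receptors respond to excess sterols and are known to induce the exporters ABCA1 and ABCG1 as well as SREBF1.

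Total counts ran from 25478614 to 37148046 per library. Levels are given in CPM, counts relative to the library total scaled with TMM factors, and mean ± SD refers to the 3 libraries of a group. Such levels are relative to all RNA of a library, so fewer cells with a transcript and less of it per cell cannot be told apart. LATS1 lay at 77.3 to 81.97 CPM in the wild-type and 44.02 to 46.1 CPM in the knockout water libraries, while LATS2 lay at 16.2 to 16.5 and 18.2 to 18.9 CPM. Transcripts of an edited gene can persist, and the LATS2 level therefore checks nothing. Of 7 genes listed for HEK293 cells, 5 had a mean of at least 1 CPM, and PAX2 and NEFM stayed below that. The summed level of these 7 was 813 to 843 CPM in wild-type and 2775 to 2814 CPM in knockout water libraries, where KRT8, KRT18, NES and NEFL were higher and VIM was lower. Fibroblast markers summed to 9.16 to 10.6 CPM and 31.3 to 36.5 CPM in the same groups, mostly COL1A1. Blood, hepatocyte and adipocyte markers summed to less than 10 CPM in every library, with HBB and ADIPOQ at 0 throughout. In wild type with zinc, library 3 was farther from its replicates (chi-square over degrees of freedom 4.51 and 4.59) than those were from each other (1.81), and folds that rest on that group are also given without it.

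Per kilobase of exon, and in counts of both strands together, lipogenic enzymes had the highest levels among the members in wild-type cells in water. SCD, the desaturase that makes monounsaturated fatty acids, reached 160 CPM per kilobase, FASN, the fatty acid synthase, 150 and ACLY, which makes cytosolic acetyl-CoA from citrate, 137. SQLE stood at 53.8, IDI1 at 46.4, HMGCS1 at 44.4 and FDPS at 32.4 CPM per kilobase, and no order is read among these because the counts ignore strand. ABCA1 at 0.0222 and ABCG1 at 0.0144 CPM per kilobase were the lowest, after CYP51A1 at 1.69. The median member stood at 77.4 CPM over all libraries and the median tested gene at 11.1 CPM. Reads on the strand with few reads numbered 45.7% of the deposited count for ACAT2, 28.4% for MVK, 24.2% for SREBF1, 12.9% for ABCA1 and 10.5% for NPC1. For FDPS, whose exons overlap RUSC1-AS1 on the opposite strand, the strand with most reads held 2.13 times the deposited count, and for ACAT2, HMGCS1 and IDI1 it held 1.44, 1.26 and 1.11 times. For ACAT2, MVK, SREBF1, ABCA1 and NPC1 the fold changes called on both strands kept their call and direction on the strand with most reads.

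**Figure D1:**
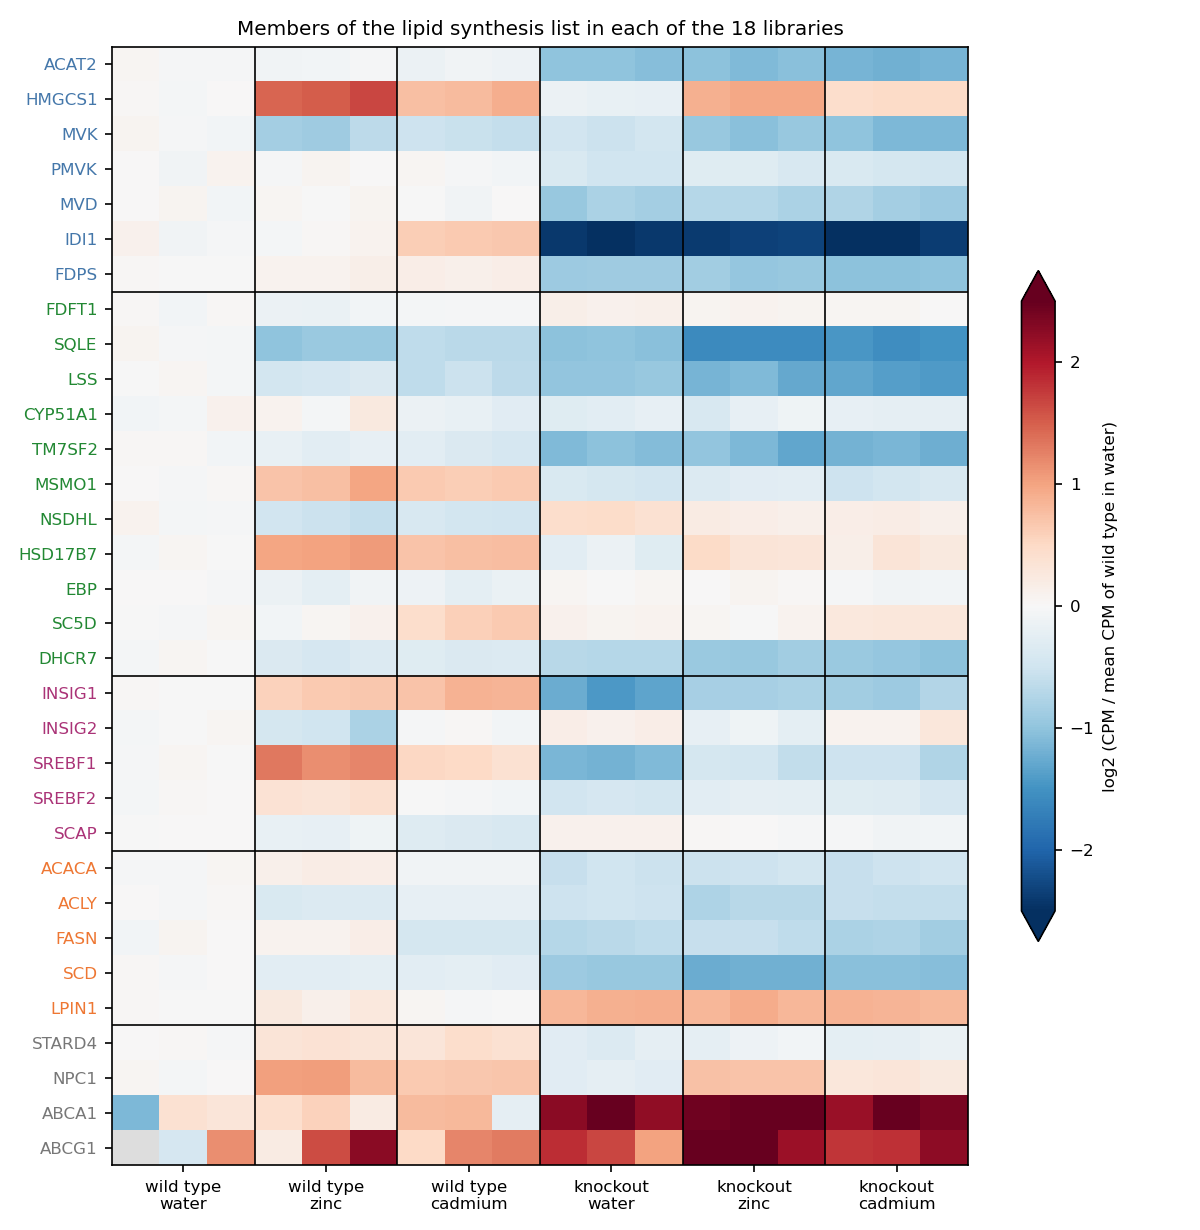
Log2 ratio of CPM in each of the 18 libraries to the mean of the 3 wild-type water libraries, for the 32 members in 5 groups by role (coloured names, black lines), with grey for a count of 0. In the knockout columns most mevalonate and sterol enzymes are blue, IDI1 the darkest, while HMGCS1 and HSD17B7 turn red under zinc in both genotypes.

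Promoter windows of members whose levels moved in these data are shown for orientation, from 250 bases before to 50 after the RefSeq start (GRCh38.p14), with capitals marking the NF-Y box CCAAT on either strand and, in SREBF2, also the sterol regulatory element TCACNCCAC. HMGCS1, HMG-CoA synthase, at chr5:43313363-43313662 on the minus strand, was the member with the highest fold under zinc in wild type among those above 1 CPM. IDI1, isopentenyl diphosphate isomerase, at chr10:1048837-1049136 on the minus strand, had the lowest fold between genotypes. INSIG1 at chr7:155297628-155297927 and MSMO1, the C4 sterol methyl oxidase, at chr4:165327419-165327718, both on the plus strand, rose under both metals in wild type. SREBF2 at chr22:41832855-41833154 on the plus strand held the single sterol element found among the members.
HMGCS1: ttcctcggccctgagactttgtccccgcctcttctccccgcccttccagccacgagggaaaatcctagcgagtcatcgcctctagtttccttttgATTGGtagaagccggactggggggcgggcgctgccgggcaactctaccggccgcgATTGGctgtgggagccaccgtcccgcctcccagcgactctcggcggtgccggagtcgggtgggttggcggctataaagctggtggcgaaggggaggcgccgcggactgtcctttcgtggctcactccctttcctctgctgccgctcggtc
IDI1: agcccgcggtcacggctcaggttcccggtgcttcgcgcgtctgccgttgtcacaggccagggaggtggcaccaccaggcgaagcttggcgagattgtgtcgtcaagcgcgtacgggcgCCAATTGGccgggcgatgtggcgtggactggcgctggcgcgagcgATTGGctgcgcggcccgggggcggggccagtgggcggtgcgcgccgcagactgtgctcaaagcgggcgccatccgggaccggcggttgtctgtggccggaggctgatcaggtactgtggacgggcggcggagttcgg
INSIG1: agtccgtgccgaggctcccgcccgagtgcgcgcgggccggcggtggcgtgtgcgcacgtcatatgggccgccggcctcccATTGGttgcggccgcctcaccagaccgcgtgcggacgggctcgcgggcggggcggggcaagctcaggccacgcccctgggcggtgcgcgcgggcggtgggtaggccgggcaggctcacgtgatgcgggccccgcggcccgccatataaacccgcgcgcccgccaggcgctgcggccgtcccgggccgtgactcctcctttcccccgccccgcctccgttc
MSMO1: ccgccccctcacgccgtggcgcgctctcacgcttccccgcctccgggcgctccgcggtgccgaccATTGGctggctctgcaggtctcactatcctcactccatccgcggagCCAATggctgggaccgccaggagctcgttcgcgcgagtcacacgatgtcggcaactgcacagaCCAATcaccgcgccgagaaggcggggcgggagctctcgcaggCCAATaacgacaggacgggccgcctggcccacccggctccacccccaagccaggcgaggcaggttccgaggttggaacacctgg
SREBF2: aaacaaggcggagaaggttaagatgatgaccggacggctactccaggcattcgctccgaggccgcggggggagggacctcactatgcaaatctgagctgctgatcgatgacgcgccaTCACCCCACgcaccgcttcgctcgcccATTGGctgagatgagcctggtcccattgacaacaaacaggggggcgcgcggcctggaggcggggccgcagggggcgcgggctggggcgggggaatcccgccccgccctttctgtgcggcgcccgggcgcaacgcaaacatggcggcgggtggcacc

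RefSeq windows were matched for 27 of the 32 members, 38 windows in all because some genes have several starts. HMGCS1 and IDI1 are among the genes with several starts, and each has another window, not shown, without CCAAT. IDI1 also has a further window with CCAAT that is not shown. The letters CCAAT, read on both strands, stood in 23 of the 38 windows (60.5%), belonging to 19 members, and in 34.6% of all 35116 windows. The Sp1 box GGGCGG stood in 34 windows (89.5%) and in 45.0% of all. The element TCACNCCAC stood in 1 member window (2.63%) and in 1.13% of all, and no match says only that these letters are not in the window. In the IDI1 window shown 2 of the 3 NF-Y matches overlap each other. These matches are descriptions of sequence and were not tested against the expression values.

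Knockout and wild-type cells were compared in water, without added metal. Most of the pathway was lower in the knockout. Of the 32 members, 23 were lower and 5 higher at an adjusted p under 0.05 (quasi-likelihood test of edgeR, adjusted by Benjamini-Hochberg over all genes tested), where 32.1% and 30.8% of the 19393 tested genes were lower and higher. A difference of at least 0.5 on the log2 scale was found downwards in 14 members and upwards in 2, against 13% and 16.9% of all genes. The median log2 fold change was -0.46 over the members and -0.02 over all genes tested.

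All 7 enzymes from acetyl-CoA to farnesyl pyrophosphate were lower. IDI1, which interconverts the 2 activated isoprene units, lay at 218, 189.8 and 197 CPM in the wild-type libraries and at 37.7, 35.2 and 38.1 CPM in the knockout libraries. The groups were far apart, a log2 fold change of -2.44 ± 0.05 or a level 5.44-fold lower. ACAT2, which joins 2 acetyl-CoA molecules, lay at 127, 119.5 and 121 and at 61.3, 61.1 and 58.9 CPM (-1.02 ± 0.04). FDPS, farnesyl diphosphate synthase, stood at 121 ± 2.16 and 64.8 ± 0.361 CPM (-0.89 ± 0.03), and MVD, the decarboxylase of the same branch, at 52.5 ± 2.61 and 28.9 ± 1.61 CPM (-0.86 ± 0.05). HMGCS1, which makes HMG-CoA, was the least affected of the 7, at 214, 203 and 209 CPM against 189.5, 184 and 182 CPM. The kinases MVK and PMVK stood between, at 33.98 ± 1.68 and 44.3 ± 2.69 CPM in wild type and 24.1 ± 0.639 and 32.2 ± 1.73 CPM in the knockout.

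From squalene to cholesterol 7 of 11 enzymes were lower, 2 were higher and 2 were not called. SQLE, the squalene epoxidase and a known control point, lay at 244, 226 and 225 CPM in wild type and 113, 116 and 112 CPM in the knockout (-1.03 ± 0.03). LSS, which closes the sterol rings, stood at 139.7 ± 5.05 and 70.9 ± 1.06 CPM (-0.98 ± 0.04). TM7SF2, a sterol C14 reductase, stood at 37.1 ± 1.37 and 17.6 ± 0.426 CPM (-1.07 ± 0.06), and DHCR7, which catalyses a last step, at 181 ± 5.83 and 111 ± 0.846 CPM (-0.71 ± 0.03). MSMO1, HSD17B7 and CYP51A1 were lower by less than 0.5. The 2 higher members were NSDHL, which acts with MSMO1 and HSD17B7 in removing the C4 methyl groups, at 45.1 ± 2.31 and 60.6 ± 1.55 CPM, and FDFT1, squalene synthase, at 90.8 ± 3.602 and 98.9 ± 1.504 CPM. EBP stood at 80.5 ± 1.02 and 82.2 ± 2.19 CPM and SC5D at 68.1 ± 1.79 and 72.2 ± 0.999 CPM, neither of them called.

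Among the regulators, INSIG1 lay at 87.96, 85.1 and 85.8 CPM in wild type and 36.3, 32.1 and 34.5 CPM in the knockout (-1.33 ± 0.05). SREBF1 lay at 21.6, 22.9 and 22.1 and 10.01, 9.72 and 10.3 CPM (-1.15 ± 0.07). For both genes every knockout library lay far below every wild-type library. SREBF2 was lower by less than 0.5 (154 ± 3.91 and 113 ± 2.24 CPM), SCAP was slightly higher (108 ± 1.07 and 116 ± 0.405 CPM), and INSIG2 was not called (15.8 ± 0.524 and 17.4 ± 0.418 CPM). The fatty acid enzymes were lower as well. SCD stood at 857 ± 20.2 and 449 ± 6.13 CPM (-0.93 ± 0.03), FASN at 1402 ± 60.5 and 877 ± 24.6 CPM (-0.68 ± 0.03), ACACA, acetyl-CoA carboxylase, at 204 ± 6.73 and 141 ± 3.55 CPM (-0.53 ± 0.03) and ACLY at 715 ± 11.95 and 501 ± 7.41 CPM (-0.51 ± 0.03). LPIN1, a phosphatidate phosphatase that also acts in the nucleus, went the other way, from 23.9, 23.4 and 23.3 to 42.1, 43.5 and 44.1 CPM (0.88 ± 0.05).

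The sterol exporters were barely expressed. ABCA1 had 3 to 11 counts per wild-type water library and 34 to 52 per knockout library, 0.115, 0.3301 and 0.312 CPM and 1.198, 1.63 and 1.18 CPM, a log2 fold change of 2.33 ± 0.29 with no overlap. ABCG1 had 0 to 7 and 7 to 9 counts and was not called. STARD4, a cytosolic sterol carrier, and NPC1, which releases cholesterol from lysosomes, were lower by less than 0.5, at 47.7 ± 0.864 and 41.2 ± 1.48 CPM in wild type and 39.4 ± 1.59 and 34.2 ± 0.805 CPM in the knockout. Adjusted p of the members named with a fold change ran from 1.08e-33 for IDI1 to 7.05e-09 for ABCA1 in edgeR. With library size alone as scaling, 9 members were higher and 22 lower. The higher summed levels of the HEK293 and fibroblast marker lists in the knockout moved with these differences, and their part in them was not tested.

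**Figure D2:**
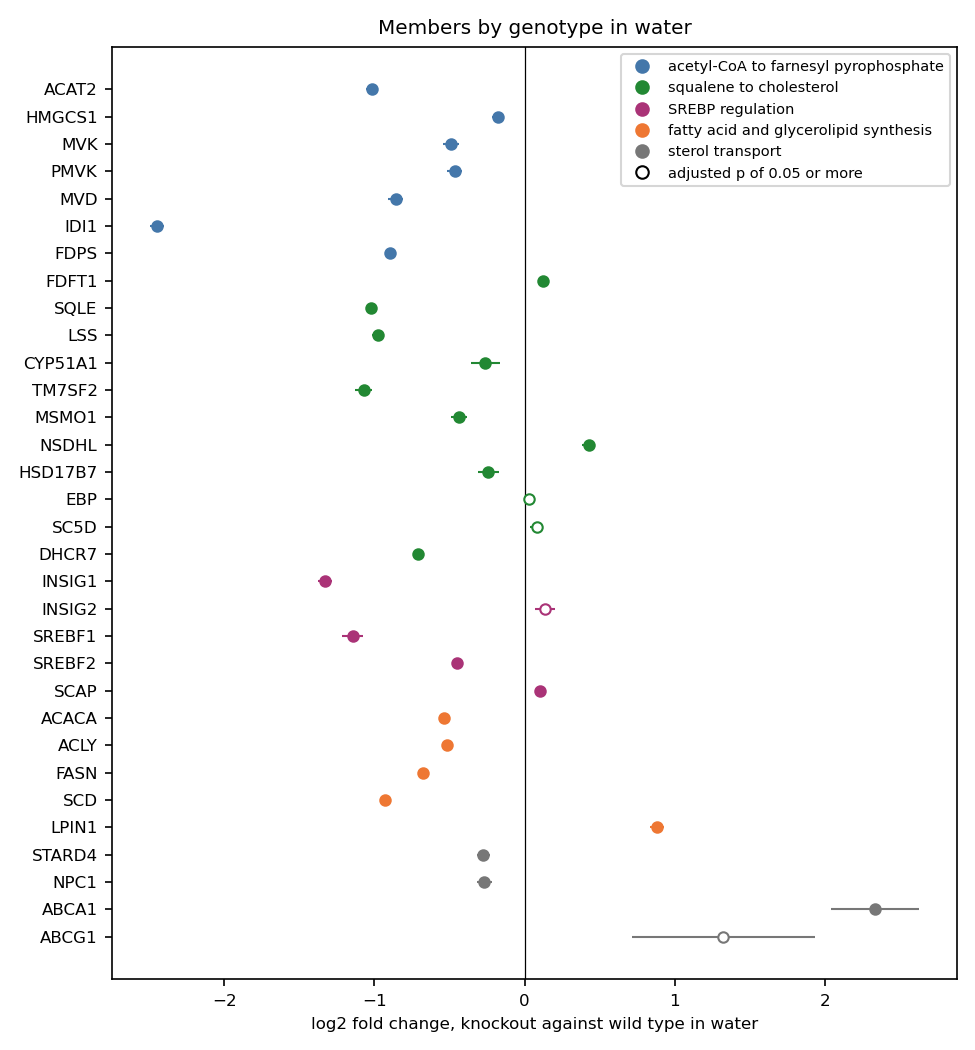
Log2 fold change of each member between knockout and wild type in water, with a bar of 1 approximate standard error; filled points passed the test at an adjusted p under 0.05. IDI1 lies farthest to the left at -2.44, 23 members lie below 0 with a filled point, and ABCA1 and LPIN1 lie farthest to the right among the filled points.

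In the 3 further lists of pathway genes the knockout differed in both directions. Of 15 other sterol pathway genes 4 were higher and 9 lower, of 13 genes of SREBP processing and LXR signalling 4 and 5, and of 22 other fatty acid and glycerolipid genes 8 and 9. Higher and lower shares were 26.7% and 60% in the first list, 30.8% and 38.5% in the second and 36.4% and 40.9% in the third. Of all tested genes 30.8% were higher and 32.1% lower. SCD5, a second stearoyl-CoA desaturase, was lower (-1.87 ± 0.05), and so were the lamin B receptor LBR, which also reduces sterols at C14 (-0.57 ± 0.03), and MYLIP, a ubiquitin ligase induced by LXR (-0.93 ± 0.09). The lipid droplet protein PLIN2 (1.96 ± 0.10), the triglyceride enzyme DGAT2 (1.40 ± 0.11), the SREBP protease MBTPS2 (0.84 ± 0.03) and the receptor NR1H3, also called LXR alpha (0.61 ± 0.08), were higher. All 7 had an adjusted p of at most 7.79e-09 in edgeR.

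The zinc libraries of wild type show the response to an essential metal. The members split: HMGCS1, SREBF1, HSD17B7, NPC1, MSMO1 and INSIG1 rose while SQLE, MVK, INSIG2 and NSDHL fell. In all 13 of 32 rose and 12 fell (edgeR, adjusted p under 0.05), where 29.4% of all tested genes rose and 32% fell. These counts are 40.6% and 37.5% of the members, near the shares of all genes. By at least 0.5 on the log2 scale 7 rose and 4 fell, against 17.1% and 13.8% of all genes. The median over the members was 0.03. Scaling by library size alone gave 10 members higher and 13 lower.

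HMGCS1 rose from 214, 203 and 209 CPM to 576, 599 and 662 CPM, a log2 fold change of 1.55 ± 0.04 (adjusted p = 1.09e-29, edgeR). Every zinc library stood far above every water library. MVK, which acts after mevalonate is formed, fell from 35.8, 33.5 and 32.6 to 18.9, 18.4 and 21.5 CPM (-0.79 ± 0.06). Of the other 5 enzymes of this stretch, FDPS rose by less than 0.5 and ACAT2, PMVK, MVD and IDI1 were not called, IDI1 lying at 195, 206 and 213 CPM and overlapping its water libraries.

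SQLE fell from 244, 226 and 225 to 115, 121 and 121 CPM (-0.96 ± 0.03), close to its level in untreated knockout cells. LSS and DHCR7 fell by less than 0.5, to 105 ± 4.01 and 139 ± 4.32 CPM. The 3 enzymes that remove the C4 methyl groups went apart. MSMO1 rose from 50.7, 48.9 and 51.04 to 82.03, 84.2 and 99.6 CPM (0.82 ± 0.05) and HSD17B7, which ends that step, from 12.5, 13.6 and 13.04 to 25.8, 26.1 and 27.3 CPM (1.01 ± 0.06). NSDHL, between them, fell from 47.7, 43.5 and 43.98 to 32.3, 31.2 and 29.7 CPM (-0.54 ± 0.05). All 3 pairs of groups were without overlap. In the whole stretch from squalene to cholesterol 2 of 11 rose and 7 fell.

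SREBF1 rose from 21.6, 22.9 and 22.1 to 55.6, 49.7 and 51.6 CPM (1.24 ± 0.06), while SREBF2 rose by less than 0.5, from 154 ± 3.91 to 199 ± 4.94 CPM. The pair of INSIG genes moved in opposite directions, INSIG1 from 87.96, 85.1 and 85.8 to 129, 135 and 137 CPM (0.63 ± 0.04) and INSIG2 from 15.3, 15.6 and 16.3 to 11.6, 11.2 and 9.14 CPM (-0.57 ± 0.07). NPC1 rose from 42.4, 39.6 and 41.5 to 83.8, 84.5 and 71.1 CPM (0.95 ± 0.05) and STARD4 by less than 0.5. All 5 fatty acid and glycerolipid enzymes changed by less than 0.5: ACACA, FASN and LPIN1 upwards, ACLY and SCD downwards. ABCG1, with 9 counts in the 3 water libraries and 24 in the 3 zinc libraries, gave 1.42 ± 0.61 at an adjusted p of 0.0435 (edgeR), and without zinc library 3 it gave 0.91 at an adjusted p of 0.287. Leaving out water library 1 gave 0.94 (adjusted p = 0.183), water library 2 gave 1.21 (0.130) and zinc library 2 gave 1.41 (0.0764), so 4 of the 6 fits that each left out a library lost this call. The other two kept it, at 2.78 without water library 3 (adjusted p = 0.00571) and 1.80 without zinc library 1 (adjusted p = 0.0113). Without zinc library 3, HMGCS1 stood at 1.49, SREBF1 at 1.24, NPC1 at 1.03, HSD17B7 at 0.99, MSMO1 at 0.73 and INSIG1 at 0.62. SQLE then stood at -0.97, MVK at -0.86, NSDHL at -0.50 and INSIG2 at -0.47, and all of these were still called.

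Outside the members, FBXW7, the ubiquitin ligase subunit that turns over nuclear SREBP, rose (1.07 ± 0.04) and RNF139, a ligase of the endoplasmic reticulum membrane, fell (-1.07 ± 0.05) with zinc, as did NR1H3 (-0.61 ± 0.09). ACSL4, which activates polyunsaturated fatty acids, rose (1.09 ± 0.04), while HILPDA, an inhibitor of lipolysis on lipid droplets, fell from 17.7, 14.1 and 13.6 to 2.98, 2.53 and 2.93 CPM (-2.41 ± 0.11) and GPAM, which starts glycerolipid synthesis, fell too (-0.72 ± 0.04). Without zinc library 3 these were 1.07, -1.06, -0.65, 1.13, -2.44 and -0.75 in the order FBXW7, RNF139, NR1H3, ACSL4, HILPDA and GPAM. Of the 15 other sterol genes 0 rose and 10 fell, of the 13 processing and LXR genes 5 rose and 6 fell, and of the 22 lipid genes 9 rose and 9 fell. In that order the shares were 0% and 66.7%, 38.5% and 46.2%, and 40.9% and 40.9%. Of all tested genes 29.4% rose and 32% fell.

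Cadmium, a toxic metal with no established role in human cells, was compared with water in wild type. It shares its water libraries with the zinc comparison. Of the 32 members 10 rose and 13 fell (edgeR, adjusted p under 0.05), against 30% and 31.7% of all genes. When libraries were scaled by total count alone, the all-gene median moved from -0.01 to -0.13 and the members split into 9 higher and 19 lower. By at least 0.5, 7 rose and 3 fell, against 16.7% and 13% of all genes.

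HMGCS1 rose to 352, 363 and 391 CPM (0.82 ± 0.04) and INSIG1 to 142, 158 and 156 CPM (0.82 ± 0.04). IDI1 rose from 218, 189.8 and 197 to 309, 319 and 323 CPM (0.65 ± 0.04), with no overlap between the groups. SC5D, the C5 desaturase late in the pathway, rose from 67.9, 66.5 and 70.1 to 92.5, 104 and 108 CPM (0.57 ± 0.04). HSD17B7 reached 21.8 ± 0.461 CPM (0.74 ± 0.06), MSMO1 78.4 ± 1.66 CPM (0.64 ± 0.05) and NPC1 65.6 ± 0.695 CPM (0.67 ± 0.05). These groups did not overlap with water.

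SQLE fell to 149, 146 and 146 CPM (-0.66 ± 0.03), LSS to 90.4, 95.9 and 89.4 CPM (-0.60 ± 0.04) and MVK to 23.6, 23.2 and 22.6 CPM (-0.55 ± 0.05). SREBF1 rose by less than 0.5, to 30.6 ± 1.46 CPM, and SREBF2 at 151 ± 2.74 CPM was not called. Of the 5 fatty acid and glycerolipid enzymes 4 fell by less than 0.5, among them FASN, to 1038, 1028 and 1036 CPM from 1340.1, 1461 and 1403 CPM, and LPIN1 was not called. Adjusted p of the 10 members named with a fold change ran from 7.88e-21 for HMGCS1 to 2.67e-11 for MVK in edgeR.

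Among other pathway genes, ELOVL5, an elongase of polyunsaturated fatty acids, rose (1.11 ± 0.03), and MYLIP (-1.25 ± 0.10), HILPDA (-1.74 ± 0.10) and GPAM (-0.84 ± 0.04) fell. Of the 15 other sterol genes 2 rose and 10 fell, of the 13 processing and LXR genes 1 and 6, and of the 22 lipid genes 6 and 13. In that order the shares were 13.3% and 66.7%, 7.69% and 46.2%, and 27.3% and 59.1%. Of all tested genes 30% rose and 31.7% fell.

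**Figure D3:**
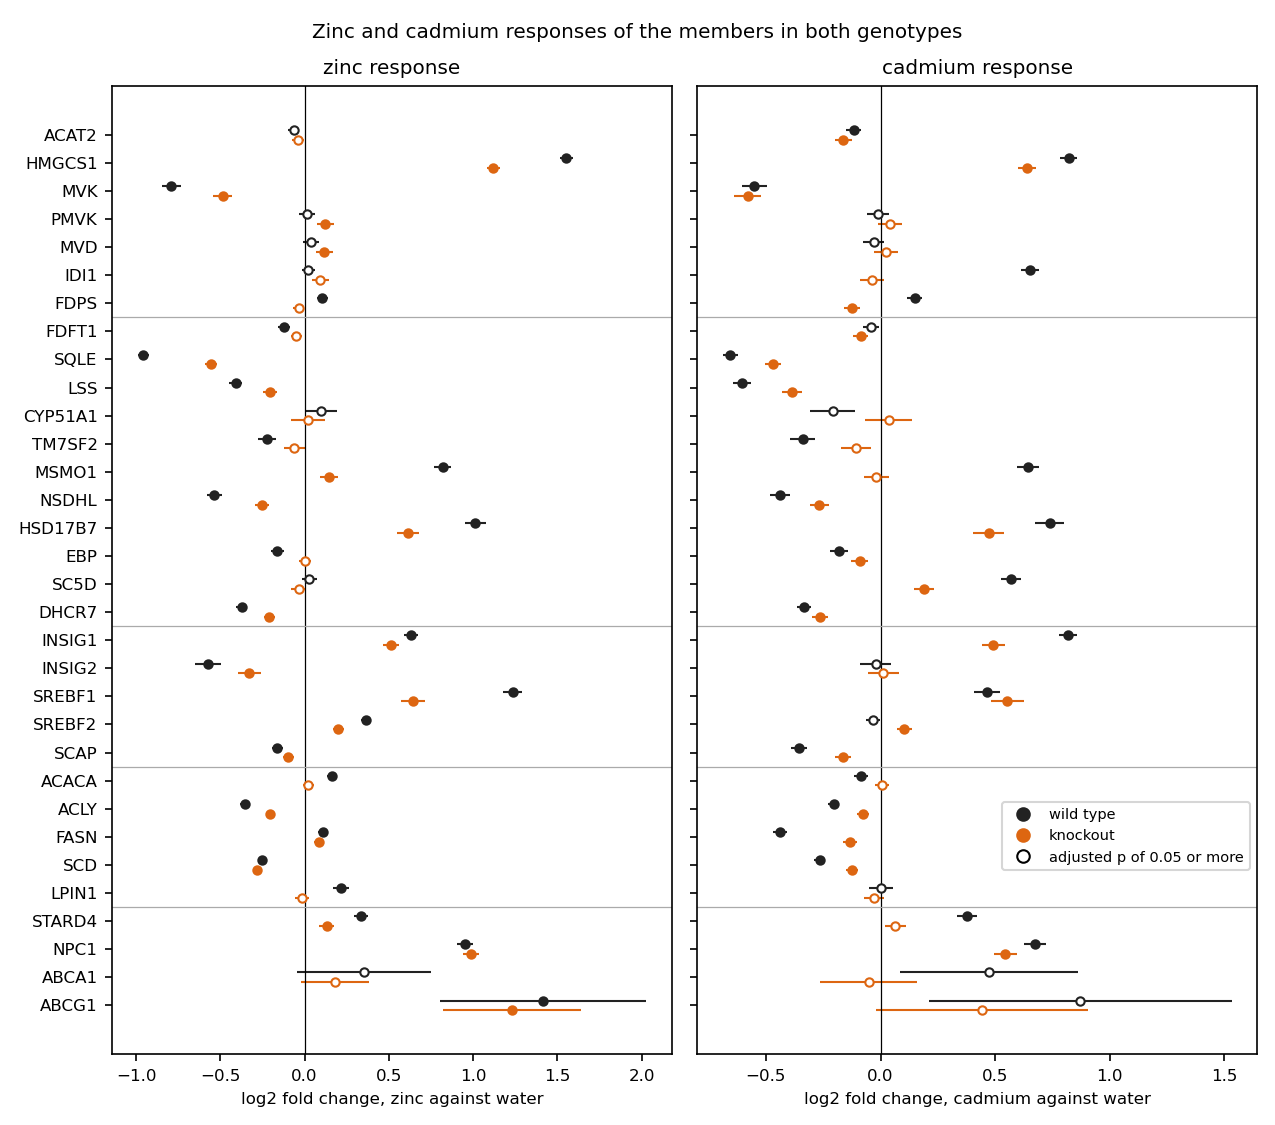
Log2 fold change of each member under zinc (left) and cadmium (right) against water, for wild type (black) and knockout (orange), with bars of 1 approximate standard error; open points did not pass at an adjusted p under 0.05. HMGCS1 has the rightmost filled wild-type point under both metals, and IDI1 and MSMO1 show a wild-type point far to the right of the knockout point under cadmium.

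In LATS1/2 knockout cells zinc raised 12 members and lowered 9 (edgeR, adjusted p under 0.05), where 28.2% and 27.7% of all genes rose and fell. With library size alone as scaling, 7 rose and 16 fell. By at least 0.5, 6 rose and 1 fell, against 14.7% and 9.48% of all genes. HMGCS1 rose from 189.5, 184 and 182 to 389, 409 and 408 CPM (1.12 ± 0.04), NPC1 from 33.7, 35.1 and 33.7 to 68.6, 67.3 and 67.4 CPM (0.99 ± 0.05), and HSD17B7 from 10.8, 11.9 and 10.6 to 18.1, 16.4 and 16.1 CPM (0.61 ± 0.07). SREBF1 rose from 10.01, 9.72 and 10.3 to 16.3, 16.2 and 14.5 CPM (0.64 ± 0.07), below every untreated wild-type library, and INSIG1 from 36.3, 32.1 and 34.5 to 48.6, 48.5 and 49.7 CPM (0.51 ± 0.05). SQLE fell from 113, 116 and 112 to 76.7, 77.4 and 77.7 CPM (-0.56 ± 0.04). ABCG1, with 25 counts in water and 56 in zinc, gave 1.23 ± 0.41 (adjusted p = 0.0104), which was 0.98 at an adjusted p of 0.0767 without water library 3 and 0.92 at 0.101 without zinc library 2 (edgeR).

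Cadmium in knockout cells raised 7 members and lowered 13, against 23.2% and 23.8% of all genes. The median of all genes moved from 0.00 to -0.12 with library size alone, and the members then split into 5 higher and 18 lower. By at least 0.5, 3 rose and 1 fell, against 10.4% and 6.31% of all genes. HMGCS1 reached 282, 291 and 292 CPM (0.64 ± 0.04), SREBF1 15.4, 15.4 and 13.3 CPM (0.55 ± 0.07) and NPC1 50.1, 50.6 and 48.7 CPM (0.54 ± 0.05). MVK fell from 24.3, 23.4 and 24.6 to 16.9, 15.7 and 15.6 CPM (-0.58 ± 0.06). IDI1 stayed low and was not called, at 34.4, 35.01 and 38.7 CPM. SQLE fell and HSD17B7 and INSIG1 rose by less than 0.5. Adjusted p of the 4 members named with a fold change ran from 5.49e-17 to 3.83e-08 in edgeR.

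Other lists moved in part with the same metal in knockout cells. Under zinc, ACSL4 (1.04 ± 0.04) and FBXW7 (0.73 ± 0.04) rose, and HILPDA (-1.58 ± 0.11), DGAT2 (-1.06 ± 0.10) and RNF139 (-0.69 ± 0.05) fell. Under cadmium, ELOVL5 rose (0.63 ± 0.03) and HILPDA (-1.02 ± 0.10), MYLIP (-0.72 ± 0.12) and GPAM (-0.57 ± 0.04) fell. Of the 15 other sterol genes 4 rose and 5 fell with zinc and 2 and 4 with cadmium, of the 13 processing and LXR genes 5 and 4 and then 2 and 4, and of the 22 lipid genes 10 and 7 and then 4 and 11. With zinc the shares were 26.7% and 33.3%, 38.5% and 30.8%, and 45.5% and 31.8%, against 28.2% and 27.7% of all genes. With cadmium they were 13.3% and 26.7%, 15.4% and 30.8%, and 18.2% and 50%, against 23.2% and 23.8% of all genes.

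Whether the metal responses differed between genotypes was tested as the knockout response minus the wild-type response. For zinc 7 of 32 members had a more positive and 9 a more negative response in the knockout (edgeR, adjusted p under 0.05), where 14.1% and 10.5% of all genes did. By at least 0.5, 0 members were more positive and 2, MSMO1 and SREBF1, more negative, against 3.73% and 3.34% of all genes. MSMO1 rose by 0.82 in wild type and lay at 38.4, 36.8 and 36.1 CPM in water and 39.6, 41.4 and 41.9 CPM in zinc in the knockout, a difference of -0.67 ± 0.07 (adjusted p = 2.88e-09, edgeR). The difference for SREBF1 was -0.59 ± 0.09 (adjusted p = 3.34e-06, edgeR). Without zinc-treated wild-type library 3 they were -0.58 and -0.60. HMGCS1 and HSD17B7 were among the 9 and SQLE, LSS, MVK, NSDHL and DHCR7 among the 7, so for each of these genes the log2 response in the knockout was the smaller of the pair.

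For cadmium 9 members were more positive and 8 more negative, against 14% and 14.1% of all genes. By at least 0.5, 0 were more positive and 2, IDI1 and MSMO1, more negative, against 3.59% and 5.26% of all genes. With only the compared groups in the fit, 5 members were more positive. The cadmium rise of IDI1 in wild type had no counterpart in the knockout, a difference of -0.69 ± 0.07 (adjusted p = 1.24e-10, edgeR), and MSMO1 differed by -0.66 ± 0.07 (adjusted p = 5.15e-09, edgeR), its knockout libraries lying at 35.3, 36.7 and 37.9 CPM. SC5D, INSIG1, HMGCS1, STARD4, HSD17B7 and FDPS were also among the 8. Of the 9, FASN had fallen in wild type from 1402 ± 60.5 to 1034 ± 5.54 CPM and in the knockout from 877 ± 24.6 to 800.4 ± 24.4 CPM. Outside the members, HILPDA fell less in the knockout under zinc (0.84 ± 0.17) and cadmium (0.72 ± 0.15), and MYLIP under cadmium (0.53 ± 0.16). The zinc difference of HILPDA was 0.87 without zinc-treated wild-type library 3.

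**Figure D4:**
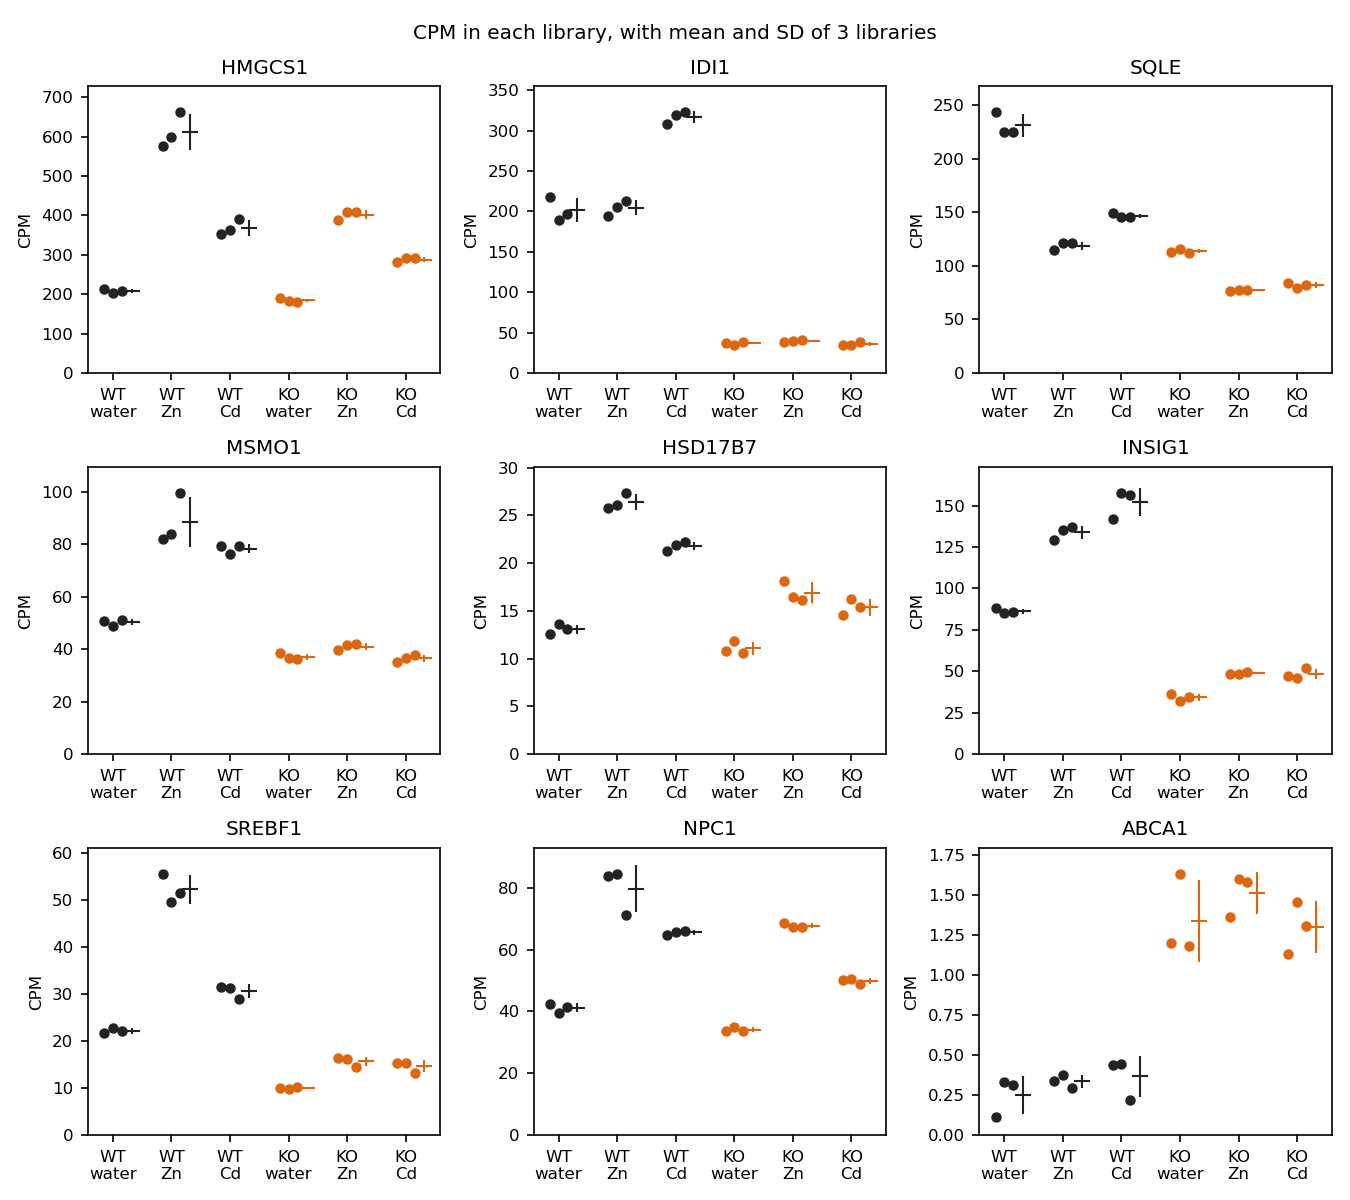
CPM in each library for 9 members, wild type in black and knockout in orange, with a dash and bar for the mean and SD of 3 libraries; each axis starts at 0. IDI1 rises to 309 to 323 CPM under cadmium in wild type and stays between 34.4 and 40.3 CPM in all 9 knockout libraries, while HMGCS1 rises under both metals in both genotypes.

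Cadmium was also set against zinc directly, at the different concentrations used. In wild type 8 members were higher and 12 lower with cadmium (edgeR, adjusted p under 0.05), against 27.3% and 25% of all genes. Scaling by library size alone gave 7 higher and 16 lower. IDI1 (0.63 ± 0.04), INSIG2 (0.55 ± 0.07) and SC5D (0.54 ± 0.04) were higher with cadmium by at least 0.5, as were 10.9% of all genes. SREBF1 (-0.77 ± 0.05), HMGCS1 (-0.73 ± 0.04) and FASN (-0.55 ± 0.03) were lower by as much, as were 10.2% of all genes. INSIG2 lay at 15.5, 16.1 and 15.1 CPM with cadmium, not called against water, and at 11.6, 11.2 and 9.14 CPM with zinc. Without zinc library 3 the members stood at 0.66 for IDI1, 0.45 for INSIG2, 0.58 for SC5D, -0.78 for SREBF1, -0.67 for HMGCS1 and -0.52 for FASN, all still called. In the other lists FBXW7 (-1.14 ± 0.04), MYLIP (-1.49 ± 0.10) and LPIN2 (-0.75 ± 0.05) were lower with cadmium and RNF139 (0.74 ± 0.06) and GGPS1, geranylgeranyl diphosphate synthase (0.63 ± 0.06), higher. Without zinc library 3 these 5 stood at -1.14, -1.37, -0.74, 0.74 and 0.60 in the same order.

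In knockout cells 5 members were higher and 10 lower with cadmium than with zinc, against 24% and 24.3% of all genes. With library size alone these were 4 and 12. In the main fit 0 called members passed 0.5 in either direction, against 7.86% and 9.64% of all genes. HMGCS1 (-0.48 ± 0.04, adjusted p = 1.21e-13 in edgeR) had the largest called change. ABCG1 gave -0.79 ± 0.39 without being called (adjusted p = 0.0971, edgeR), -1.04 at an adjusted p of 0.0414 without zinc library 3, and -0.48 at an adjusted p of 0.422 without zinc library 2. FBXW7 was lower with cadmium here too (-1.10 ± 0.05), as were MYLIP (-0.82 ± 0.12) and NR1H2, or LXR beta (-0.50 ± 0.06). MID1IP1, an activator of acetyl-CoA carboxylase, was higher (0.77 ± 0.06). It was higher in wild type as well, at 0.63, and at 0.72 without zinc-treated wild-type library 3.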

How the data were processed

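Stranded mRNA libraries from 18 samples, 3 in each of 6 groups taken from the sample titles, were analysed. The deposited values are raw read counts per Ensembl gene, for both strands together and for each strand. STAR and the builds hg38 and GRCh38.p13 are named per the submitters' processing notes. No STAR version, counting tool or annotation release is given in the sources used here. The counts of both strands together were used, without the summary rows, and symbols came from GENCODE 29. Members and gene lists were chosen with earlier results of these data known.

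With edgeR 4.0.16 in R 4.3.3, filterByExpr (minimum count 10) kept 19393 of 58336 genes. TMM factors and 1 quasi-likelihood fit over all 6 groups gave 9 contrasts, with Benjamini-Hochberg adjustment over all genes tested and a threshold of 0.05. Standard errors are approximate, from the fold change and its test statistic. The median biological coefficient of variation was 3.93%. Fold changes are printed for members past the threshold with a log2 change of at least 0.5 and for up to 3 genes of each further list by the same limits with a mean of at least 5 CPM; where no member reached them, the 2 largest changes are given. A gene of the further lists that this rule names is not reported here. Tested on simulated data, the zinc contrast in wild type recovered 82%, 92%, 100% and 100% of genes changed 1.25, 1.5, 2 and 4-fold, and called 10 unchanged genes among 18690 genes tested. The contrast for the genotype difference of the zinc response recovered 50%, 80%, 98% and 100% at these folds and called 10 unchanged genes among 18694 tested. At each fold 50 genes were changed, drawn only from genes with a mean of at least 50 counts, and all other genes were left unchanged. The simulation therefore could not show recovery of low-count genes such as ABCA1 and ABCG1, or scaling errors where many genes change. Alternatives were RLE factors, library size alone, DESeq2 1.42.0, 2 other filters, the strand with most reads, the compared groups alone, a replicate block and leaving out each library. Promoter windows are RefSeq's for GRCh38.p14, used for sequence only.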

Additional observations from a re-analysis of the deposited data

Results flagged for a closer look

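For 3 members and 2 genes of the further lists the metal response differed between the genotypes by at least 0.5 on the log2 scale, tested by the interaction contrast (knockout response minus wild-type response) with edgeR (quasi-likelihood), and for MSMO1 and HILPDA it did so under both metals. MSMO1 differed by -0.67 under zinc and by -0.66 under cadmium. SREBF1 differed by -0.59 under zinc and IDI1 by -0.69 under cadmium. HILPDA differed by 0.84 under zinc and 0.72 under cadmium, its fall being smaller in the knockout, and MYLIP differed by 0.53 under cadmium. Of these, MYLIP lost its call when cadmium-treated knockout library 1 was left out, at 0.43 with an adjusted p of 0.063 in edgeR. The zinc and cadmium contrasts share the water libraries of both genotypes.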

How the results depend on the processing

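Of 1465 alternative values of 102 named fold changes, 1453 kept their direction and side of the threshold, 11 lost the call, 1 gained it and 0 reversed. ABCG1 accounted for 10 of the lost calls and the gained one, MYLIP for the other. Beyond the left-out libraries, ABCG1 under zinc lost its call in wild type with library size alone (1.36, adjusted p = 0.0538), on the strand with most reads (1.37, 0.0579) and in DESeq2 (1.49, 0.0831), and in the knockout in DESeq2 (1.23, 0.0684), against edgeR's quasi-likelihood test. Among counts of members, library size alone gave 7 higher and 16 lower for zinc in the knockout and 9 higher for knockout against wild type, and the compared groups alone gave 5 higher for the cadmium difference between genotypes, where the reported counts are 12, 9, 5 and 9. Leaving out each library moved no count of members by more than 1.5 times. For knockout against wild type in water it gave 5 to 6 higher and 22 to 23 lower. Other counts moved more. For zinc in the knockout every such fit gave fewer members higher, 8 to 10 where 12 are reported. Cadmium in the knockout gave 10 to 13 lower (reported 13), and its difference between genotypes 6 to 9 more positive (reported 9). Same-numbered libraries deviated together at most weakly (r between -0.02 and 0.09, median 0.02, over 45 pairs). Over 90 other pairs r lay between -0.07 and 0.03, with a median of -0.01. The replicate numbers were not taken to pair samples. A replicate block gave 5 higher and 23 lower members for knockout against wild type, 13 and 12 for zinc and 10 and 13 for cadmium in wild type, as without it. Over all genes it called somewhat more, for example 5072 against 4767 for the zinc difference between genotypes. A filter of at least 5 CPM left out ABCA1 and ABCG1. Depth limits these 2 genes, with at most 53 counts in a library.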
